A study of Mus musculus with 4 samples.

Results

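The genes described here are 10 named components of transforming growth factor beta (TGF-beta) signalling: the ligand gene Tgfb1, the receptor genes Tgfbr1, Tgfbr2 and Tgfbr3, the signal transducers Smad2, Smad3 and Smad4, and the inhibitors Smad7, Ski and Skil. They were matched by symbol, by a rule that uses no measured value, but the set was chosen with earlier results of these data known. All 10 were present among the 50600 genes counted. The 4 libraries, biological replicates 1 to 4, hold RNA of T-helper 17 (Th17) primary cells from mouse strain C57BL/6NJ, a CD4 T cell subset that secretes interleukin-17, and no second group was analysed here. The labels link a protocol for differentiating CD4 T cells, list neither a genotype change nor a treatment, and leave age unknown and sex not collected; a 2 hour tag in the headers has no stated starting event. The libraries come from different biosamples under 1 donor identifier, but the sex-linked genes given below show that replicates 1 and 2 do not come from the same animals as replicates 3 and 4. Whether the libraries within each of these pairs come from separate animals or cultures is not stated, so the spread within a pair may be technical. Libraries within a pair were not the most alike. The chi-square of their counts over its degrees of freedom was 39.0 for replicates 1 and 2 and 47.9 for 3 and 4. Between libraries of different pairs it ran from 15.3 (replicates 1 and 4) to 49.0 (replicates 2 and 3). The SDs and p-values cover these 4 libraries alone.

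TGF-beta is secreted as a latent dimer that must be released before it can act. The active ligand binds the type II receptor, which recruits and phosphorylates the type I receptor; this kinase in turn phosphorylates SMAD2 and SMAD3, which enter the nucleus with SMAD4 and act on target genes. In CD4 T cells the pathway restrains activation and, together with interleukins such as IL-6, drives differentiation into Th17 cells, whereas without them it favours regulatory T cells. SKI and SnoN, the product of Skil, hold SMAD complexes in a repressed state and are degraded when the pathway is triggered, and SMAD7 blocks the type I receptor; Smad7 and Skil are themselves known SMAD target genes.

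The promoter windows of the ligand gene and of the genes of its kinase receptors are shown because these partners act in 1 complex. The windows, from RefSeq on GRCm38.p6 (the assembly that mm10 names), run 5′ to 3′ on the gene's strand from 250 bases before to 50 bases after the annotated start. Tgfb1, Tgfbr1, Tgfbr2, Smad3 and Ski were matched by symbol (5 of 10). Capitals mark matches to the GC box, spelled GGGCGG, and to the SMAD-binding motif, spelled CAGAC, each searched on both strands; no 2 matches of different motifs overlapped.
Tgfb1, plus strand, chr7:25686752-25687051: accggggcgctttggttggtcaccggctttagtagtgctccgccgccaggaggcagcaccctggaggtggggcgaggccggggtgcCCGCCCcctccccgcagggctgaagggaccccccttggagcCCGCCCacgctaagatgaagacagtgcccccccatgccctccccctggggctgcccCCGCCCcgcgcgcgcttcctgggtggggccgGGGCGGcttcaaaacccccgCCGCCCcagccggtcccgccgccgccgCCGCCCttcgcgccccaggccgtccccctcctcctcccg
Tgfbr1, plus strand, chr4:47352972-47353271: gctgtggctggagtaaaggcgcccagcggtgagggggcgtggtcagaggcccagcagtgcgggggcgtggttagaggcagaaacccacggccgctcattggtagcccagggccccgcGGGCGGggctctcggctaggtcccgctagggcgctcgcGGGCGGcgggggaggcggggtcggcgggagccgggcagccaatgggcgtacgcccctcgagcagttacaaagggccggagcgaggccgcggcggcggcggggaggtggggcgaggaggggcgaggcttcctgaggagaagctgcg
Tgfbr2, minus strand, chr9:116175314-116175613: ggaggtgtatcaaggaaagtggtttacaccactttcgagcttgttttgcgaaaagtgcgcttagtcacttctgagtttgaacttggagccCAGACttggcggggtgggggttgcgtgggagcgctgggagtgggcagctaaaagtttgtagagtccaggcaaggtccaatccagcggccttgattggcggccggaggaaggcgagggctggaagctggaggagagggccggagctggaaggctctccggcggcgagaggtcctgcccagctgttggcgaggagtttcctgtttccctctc

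The GC box matched 6 times in the Tgfb1 window and 2 times in the Tgfbr1 window, and it had 0 matches in the Tgfbr2 window. The SMAD-binding motif matched 1 time, in the Tgfbr2 window. Of 32851 windows of the same length, 35.7% held the GC box and 49.6% the SMAD-binding motif, so 1 match of either is common. The median number of matches per window was 0 for both motifs. No TATA box, spelled TATAAA and searched on both strands, was found in the 3 windows, against 13.6% of all windows with at least 1. The share of G and C was 77.0% in the Tgfb1 window, 74.7% in the Tgfbr1 window and 59.0% in the Tgfbr2 window. The median share over all windows was 52.7%. Tgfbr1 has a second annotated start 32994 bases downstream, whose window is not shown. These matches describe the letters of the windows and say nothing of binding.

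Total counts per library lay between 25847970 and 40652146, so that 3 counts correspond to 0.0738 to 0.116 CPM (counts scaled to library size). Levels are given as TPM (transcript abundance per library), the count divided by exon length and scaled to the same sum in every library. They can be set side by side between genes as far as the exon lengths fit the RNA. Genes of CD4 T cells were present in all 4 libraries, with Cd4 at 364 ± 35.1 TPM and Cd3e at 226 ± 18.8 TPM (SD, n = 4). The genes reported here that define the labelled Th17 type were low, with Il17a at 5.65 ± 1.20 TPM, while Il23r and Ccr6 stayed below 1 TPM. Il17f, at 10.2, 7.04, 11.7 and 20.8 TPM in replicates 1 to 4, was the only gene of these markers that varied between the libraries beyond the trend described below (edgeR adjusted p = 0.0171). Of 20 markers of other cell types, 4 had a mean level at or above 1 TPM (Epcam, Itga2b, Col1a1 and Cd79a) and 6 had 0 counts. The platelet markers were split, with Itga2b at 2.80 ± 1.06 TPM, while Pf4 and Ppbp had 0 counts. All 20 markers summed to 12.3 to 15.1 TPM per library. Replicates 1 and 2 differed from 3 and 4 in the sex-linked genes, with Xist at 0.791, 0.602, 142 and 76.5 TPM and the Y-linked Ddx3y at 305, 213, 0.914 and 1.39 TPM in replicates 1 to 4. In bulk RNA, fewer cells that express a gene and less of its RNA per cell cannot be told apart.

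All 10 genes were expressed at 1 TPM or more in every library, against 10895 of all 50600 genes and 9503 of 21764 protein coding genes. The most abundant was Skil and the least abundant Tgfbr1. The median member stood at 143 TPM, against 0.279 TPM for the median of 21764 protein coding genes and 19.8 TPM for the median of the 11567 genes that passed the expression filter. Together the 10 genes made up 0.161 ± 0.0105% of the TPM of a library (SD, n = 4).

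**Figure D1:**
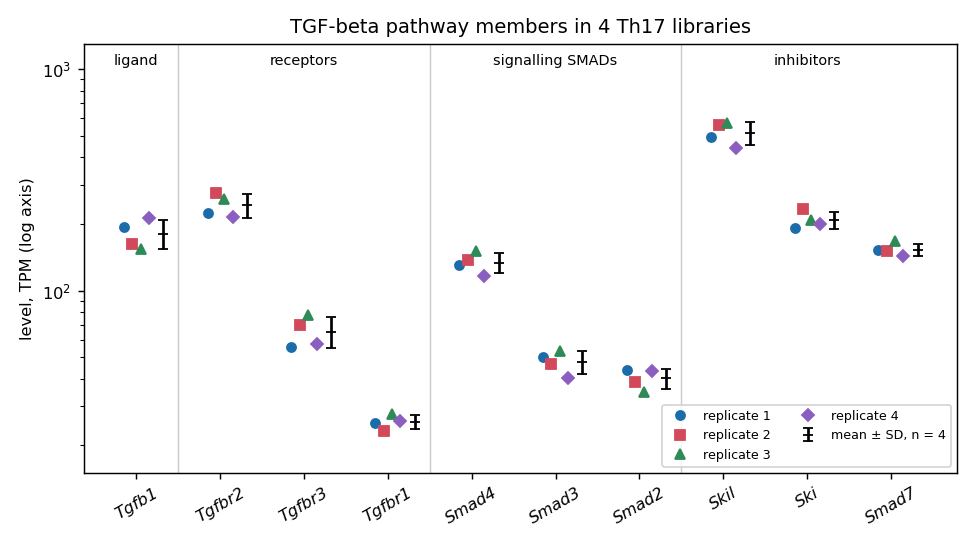
TPM of each gene (log axis) in replicates 1 to 4, with the mean and SD (n = 4) to the right of each group of points, ordered by role. Skil stands at 439.7 to 571 TPM and Tgfbr1 at 23.1 to 27.6 TPM, and within a gene the highest library is at most 1.39 times the lowest.

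Tgfb1, which encodes the TGF-beta1 ligand (ENSMUSG00000002603, chr7:25687002-25705077, plus strand, mm10), was read in the Th17 cells themselves at 194, 163, 154 and 213 TPM in replicates 1 to 4, with a mean of 181 ± 27.1 TPM (SD, n = 4). Replicate 4 was highest and replicate 3 lowest. The gene rested on 34501 fragments over the 4 libraries. The other isoforms were low: Tgfb3 stood at 0.843, 1.98, 2.07 and 1.26 TPM on 198 fragments, and Tgfb2 had 12 fragments in all. Tgfb1 thus made up 99.1 ± 0.466% of the TPM of the 3 isoform genes. On the log2(TPM + 1) scale the difference between Tgfb1 and Tgfb3 was 6.18 ± 0.54, with the same sign in 4 of 4 libraries, and it was 6.85 with a pseudocount of 0.1. The ratio of their TPM ran from 74.5 to 230 over the libraries.

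Among the receptors, the type II receptor gene Tgfbr2 (ENSMUSG00000032440, chr9:116084293-116175360, minus strand) stood at 223, 275, 260.0 and 214 TPM in replicates 1 to 4 (mean 243 ± 29.4 TPM). Tgfbr1, the gene of the type I receptor kinase (ENSMUSG00000007613, chr4:47353222-47414931, plus strand), stood at 25.2, 23.1, 27.6 and 25.8 TPM (mean 25.4 ± 1.83 TPM). The lowest Tgfbr2 library was far above the highest Tgfbr1 library, and the ratio of their TPM was 8.84, 11.9, 9.43 and 8.28 in the 4 libraries, a mean of 9.61 ± 1.60. Tgfbr3 encodes betaglycan, a co-receptor without kinase activity that presents ligand to the type II receptor (ENSMUSG00000029287, chr5:107106570-107289629, minus strand). It was read at 55.9, 70.0, 77.6 and 57.3 TPM (mean 65.2 ± 10.4 TPM), with replicates 2 and 3 above replicates 1 and 4. Tgfbr2 made up 72.8 ± 1.55%, Tgfbr3 19.5 ± 1.24% and Tgfbr1 7.71 ± 1.06% of the TPM of these 3 genes. Of the exon bases of Tgfbr3, 4.54% overlap the gene model Gm43422 on the same strand, where fragments touching both are lost, and 4.13% of its distinct 31-mers are shared with other genes, which leaves its value slightly uncertain.

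Receptors of related ligands gave a scale for these values. The activin type I receptor gene Acvr1b, whose product also signals through SMAD2 and SMAD3, stood at 33.5, 32.5, 36.8 and 31.6 TPM (mean 33.6 ± 2.25 TPM). Tgfbr1 lay below it in 4 of 4 libraries, by a log2(TPM + 1) difference of -0.39 ± 0.08. Acvr2a, an activin type II receptor gene, averaged 6.70 ± 0.765 TPM, and Tgfbr2 exceeded it by 4.98 ± 0.12 on the same scale, a TPM ratio of 36.4 ± 3.23. Of the 11 other receptor genes of the superfamily, 5 averaged at least 1 TPM; after Acvr1b the most abundant was Acvrl1, a type I receptor gene best known from endothelium, at 10.4 ± 1.23 TPM.

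The receptor-regulated SMADs of the TGF-beta branch, Smad2 and Smad3, stood close together. Smad3 (ENSMUSG00000032402, chr9:63646767-63757994, minus strand) was read at 50.2, 46.6, 53.2 and 40.5 TPM in replicates 1 to 4, a mean of 47.6 ± 5.49 TPM. Smad2 (ENSMUSG00000024563, on chromosome 18) was read at 43.6, 38.6, 34.9 and 43.1 TPM, a mean of 40.1 ± 4.12 TPM. Its deposited exon length is 3549 bases, whereas its transcripts in the later GENCODE M21 hold 8826 distinct 31-mers. Values and sums with Smad2 therefore depend on the gene model, and how far was not tested. The groups of values overlapped: Smad3 was the higher of the pair in replicates 1, 2 and 3 and the lower in replicate 4. Their log2(TPM + 1) difference was 0.24 ± 0.28, no larger than its own spread, and it was 0.13 without replicate 3. Smad3 made up 54.3 ± 4.93% of the TPM of the pair.

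Smad4, which encodes the common partner of all receptor-regulated SMADs (ENSMUSG00000024515, on chromosome 18), was read at 130.3, 137, 151 and 117 TPM (mean 134 ± 14.3 TPM). Each of these values exceeded the sum of Smad2 and Smad3 in the same library, by a mean ratio of 1.53 ± 0.161. SMAD4 also serves the SMADs of the bone morphogenetic protein branch, of which Smad5 stood at 53.7 ± 7.78 TPM and Smad1 at 9.04 ± 0.304 TPM. With 52.0, 53.8, 64.0 and 45.2 TPM in replicates 1 to 4, Smad5 lay above Smad3 in every library. In 4 of 4 libraries Smad3 exceeded Smad1, by 2.27 ± 0.21 in log2(TPM + 1), and Smad2 plus Smad3 exceeded Smad1 plus Smad5 by a mean TPM ratio of 1.41 ± 0.159.

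The 3 inhibitor genes were each read above both Smad2 and Smad3 in every library. Skil (ENSMUSG00000027660, chr3:31095058-31122577, plus strand) stood at 494, 559.9, 571 and 439.7 TPM in replicates 1 to 4, with a mean of 516 ± 61.1 TPM; it took 0.146 ± 0.0162% of all counts. Ski, its close relative (ENSMUSG00000029050, chr4:155154075-155222592, minus strand), stood at 191, 233, 209 and 199 TPM, a mean of 208 ± 18.1 TPM. All 4 Skil values lay above all 4 Ski values, with a TPM ratio of 2.48 ± 0.226. Skil exceeded Smad3 by a TPM ratio of 10.9 ± 0.891, and Skil plus Ski exceeded Smad2 plus Smad3 by 8.27 ± 0.952. Tgif1, another corepressor gene of SMAD complexes, stood at 182 ± 18.5 TPM and lay below Skil in 4 of 4 libraries (log2 difference -1.50 ± 0.16).

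Smad7, the gene of the inhibitory SMAD that targets the type I receptor (ENSMUSG00000025880, on chromosome 18), was read at 152, 150.5, 167 and 144 TPM, a mean of 153 ± 9.87 TPM. Its TPM was 3.23 ± 0.227 times that of Smad3 and 1.75 ± 0.116 times the sum of Smad2 and Smad3. Smad6, which encodes the other inhibitory SMAD and acts mainly on the bone morphogenetic protein branch, had 4, 7, 3 and 7 fragments in replicates 1 to 4. The difference between Smad7 and Smad6 had the same sign in 4 of 4 libraries. Its size depends on the pseudocount, since Smad6 is so low: it was 7.04 ± 0.17 on the log2(TPM + 1) scale and 9.15 with a pseudocount of 0.1.

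In all, 13 pairs of genes were compared within libraries by an exact permutation of the signs of the differences, two-sided. For 12 of them the sign was the same in 4 of 4 libraries, and p was 0.13 (adjusted p = 0.135), the smallest that 4 libraries allow. For Smad3 against Smad2 the same exact test gave p = 0.25 (adjusted p = 0.25). No pair could therefore pass 0.05 in this design, and the sizes and the spread between libraries carry the comparison.

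**Figure D2:**
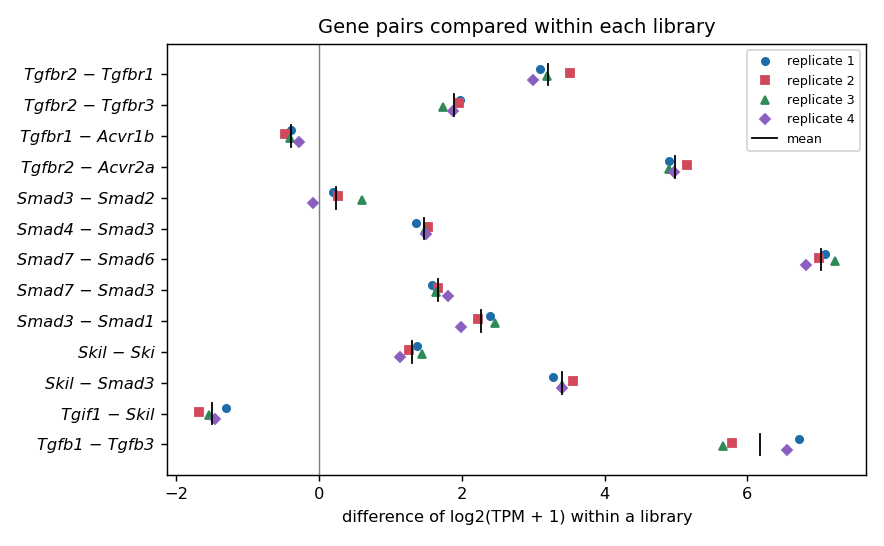
Difference of log2(TPM + 1) between the genes of each of the 13 pairs (first minus second) in replicates 1 to 4, with the mean as a bar. Points of 12 pairs stay on 1 side of 0, and those of Smad3 − Smad2 run from -0.09 to 0.60.

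Ordered by mean TPM, the 10 genes ran Skil, Tgfbr2, Ski, Tgfb1, Smad7, Smad4, Tgfbr3, Smad3, Smad2 and Tgfbr1. Of the 9 neighbouring pairs, 6 kept their order in every library with a difference above the larger SD. Ski and Tgfb1 did not differ beyond their spread (27.05 TPM apart, larger SD 27.13 TPM, this order in 2 of 4 libraries). Tgfb1 and Smad7 were 27.69 TPM apart, just above the larger SD of 27.13 TPM, but kept this order in only 3 of 4 libraries. Smad3 and Smad2 were 7.58 TPM apart, above the larger SD of 5.49 TPM, and also kept this order in 3 of 4 libraries. Among protein coding genes, Skil lay at percentile 98.9 and Tgfbr1 at percentile 77.6 by mean TPM.

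Variation between the libraries was then compared with that of all other genes. In an edgeR fit over the 11567 genes that passed its expression filter, none of the 10 genes varied beyond the trend for genes of like abundance (0 of 10, Benjamini-Hochberg adjusted p of 1.0 for each), against 94 genes, or 0.813%, of all genes fitted; 0 of the 10 had an unadjusted p under 0.05. In simulated data the same step missed many of the smaller changes, so a difference between libraries of the size seen in these genes may go uncalled. With DESeq2 size factors and dispersion trend in place of edgeR's, 0 of 10 were called and 1, Tgfb1, had an unadjusted p under 0.05 (0.0392). The spread of the 10 genes on the scale of TMM-normalised CPM had a median coefficient of variation (CV) of 10.3%, against 12.6% over all genes fitted.

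Within that range the members differed. Tgfb1 had the widest spread, with a CV of 19.1%, and 74.3% of the fitted genes had a lower CV. Smad2 followed with 14.6%. Smad7 had the narrowest, with a CV of 1.34%, and only 0.147% of the fitted genes lay below it; on the TPM scale its CV was 6.44%, so its steadiness depends on the scaling. The counting error of Smad7 alone gives a CV of about 1.25%. Tgfbr1 (5.13%), Smad4 (6.45%) and Smad3 (7.33%) lay between, as did Skil (9.64%), Ski (11.0%), Tgfbr2 (11.8%) and Tgfbr3 (12.5%).

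**Figure D3:**
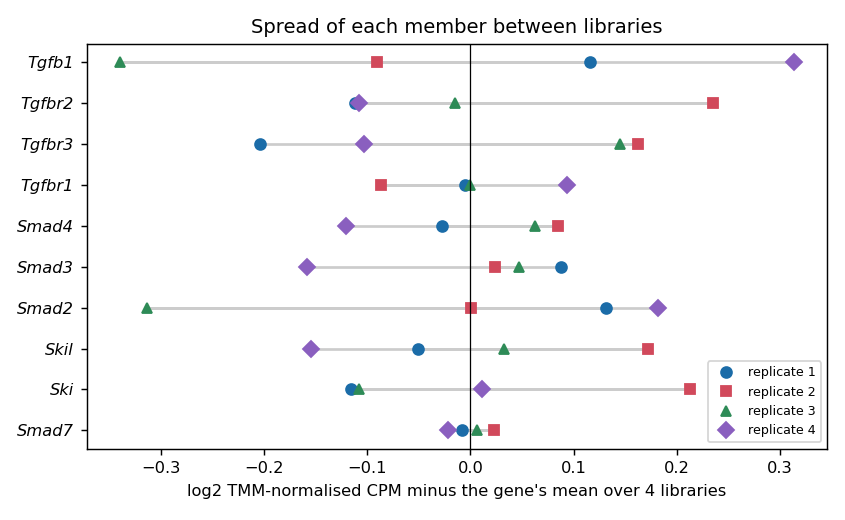
Log2 TMM-normalised CPM of each gene in replicates 1 to 4 minus the gene's mean over the 4 libraries. Tgfb1 spans -0.34 in replicate 3 to 0.31 in replicate 4, and Smad7 only -0.02 to 0.02.

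Which libraries were high also differed between members. On the TMM scale replicates 2 and 3 were the highest pair for Skil, Smad4, Smad7, Tgfbr2 and Tgfbr3 (5 of 10), and replicates 1 and 4 for Tgfb1 and Smad2 (2 of 10); over all genes fitted these pairs were highest for 20.3% and 20.7%. Il2 and its receptor gene Il2ra, chosen after their values were seen, varied beyond the trend (edgeR adjusted p = 7.3e-05 and 0.0055) and were likewise highest in replicates 4 and 1, with Il2 at 21.9, 12.9, 14.2 and 43.5 TPM in replicates 1 to 4. Whether the members' pattern is tied to that of Il2 was not tested. Replicates 1 and 2, which had high Ddx3y, were the highest pair for 0 of 10 members, against 9.71% of all genes fitted. Replicates 3 and 4, which had high Xist, were so for 1 member (Tgfbr1), against 8.21%. With 10 members, the counts of 0, 1 and 2 are near the shares over all genes. The count of 5 of 10 for replicates 2 and 3 is above its share of 20.3%, and this excess was not tested. It includes Smad7, whose CV of 1.34% is close to its counting error of about 1.25%. Of the 59 other pathway genes fitted, replicates 2 and 3 were the highest pair for 13.

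The genes whose library pattern lay nearest to a member's were found by the root mean square difference of centred log2 CPM over the 4 libraries, among 8701 protein coding genes. Nearest to Tgfb1 were Rps27l, Tent4a and Hsd17b12 (0.01, 0.02 and 0.03 log2 units), and 374 genes lay within 0.1. Nearest to Tgfbr2 were Klf2, a factor of quiescent T cells, at 356 TPM, Mut, the gene of the mitochondrial enzyme methylmalonyl-CoA mutase, at 7.42 TPM and Runx3, a regulator of cytotoxic and Th1 programmes, at 59.7 TPM. All 3 lay at 0.01 log2 units, and 1010 genes lay within 0.1. With 4 libraries such nearness is common and describes these libraries only.

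The rest of the pathway was described from lists of genes grouped by role. Outside the 10 members, 55 of the 90 genes found in the files averaged at least 1 TPM. Over all 50600 genes 11857 did so, and over the 21764 protein coding genes, the closer comparison, 9831. Of the 59 listed genes that passed the expression filter, 0 varied beyond the trend. The median of the 90 was 6.70 TPM.

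On the ligand side, 3 of 11 further ligand genes reached 1 TPM: Gdf11 at 6.02 ± 0.707 TPM, Inhba, an activin subunit, at 1.67 ± 0.720 TPM, and Tgfb3. Another 5 had 0 counts throughout, and in the shallowest library a gene with no count could still lie at up to 0.116 CPM. Of 12 genes that store or release latent ligand, 3 did so. Furin, the protease that cleaves the TGF-beta precursor, stood at 162 ± 14.1 TPM, Nrros, which encodes a tethering protein of latent TGF-beta1 in myeloid cells, at 24.8 ± 4.93 TPM, and Itgav, the integrin alpha V chain that helps to release it, at 6.81 ± 0.902 TPM. Lrrc32, which encodes the corresponding tether GARP of regulatory T cells, stood at 0.501 ± 0.106 TPM, and the integrin beta 8 gene Itgb8 had 17 fragments in all; both were named after their values were seen.

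Inside the cell the machinery was more complete. Of the 10 nuclear partner genes outside the members 9 reached 1 TPM, led by Tgif1, Sp1 (134 ± 6.40 TPM) and Ncor1 (127 ± 6.40 TPM), while Foxh1, which encodes a SMAD partner of the early embryo, had 0 counts. Of 16 genes of turnover and adaptor proteins 15 did so, led by Strap (mean 231 TPM, 213 to 257 TPM over the libraries), the phosphatase gene Ppm1a (162 ± 4.02 TPM) and Pmepa1 (102 ± 23.6 TPM), which encodes an inhibitor that sequesters receptor-regulated SMADs. All 11 genes of the branch through the kinase TAK1 did so, led by Map2k3 (245 ± 55.4 TPM), Tab2 (109 ± 4.88 TPM) and Traf6 (86.6 ± 3.01 TPM). As for Smad2, the value of Ppm1a depends on the gene model, with 2789 deposited exon bases against 12859 distinct 31-mers in GENCODE M21. The same holds for Inhba (1980 against 6308) and for Ldlrad4 (2493 against 5341), given below. How far was not tested.

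Known target genes were uneven. Of 18 outside the members 10 reached 1 TPM, led by Junb (4039 ± 369 TPM), Cdkn1a (285 ± 29.3 TPM) and Tgif1. Junb, Cdkn1a and Tgif1 also answer to other signals. Also among the 10, and named after their values were seen, were Pmepa1 (102 TPM) and Ldlrad4 (34.9 TPM). Among the 8 below 1 TPM, named after their values were seen, were Il9, Ccr9, Cdkn2b, Itgae, Nuak1, Tgfbi and Ccn2, of which Ccn2 had 0 counts. Both targets among the members, Skil and Smad7, thus stood far above the list median of 1.93 TPM (20 genes, these included). The levels alone do not show whether the pathway was active, since there is no sample without ligand to set them against.

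**Figure D4:**
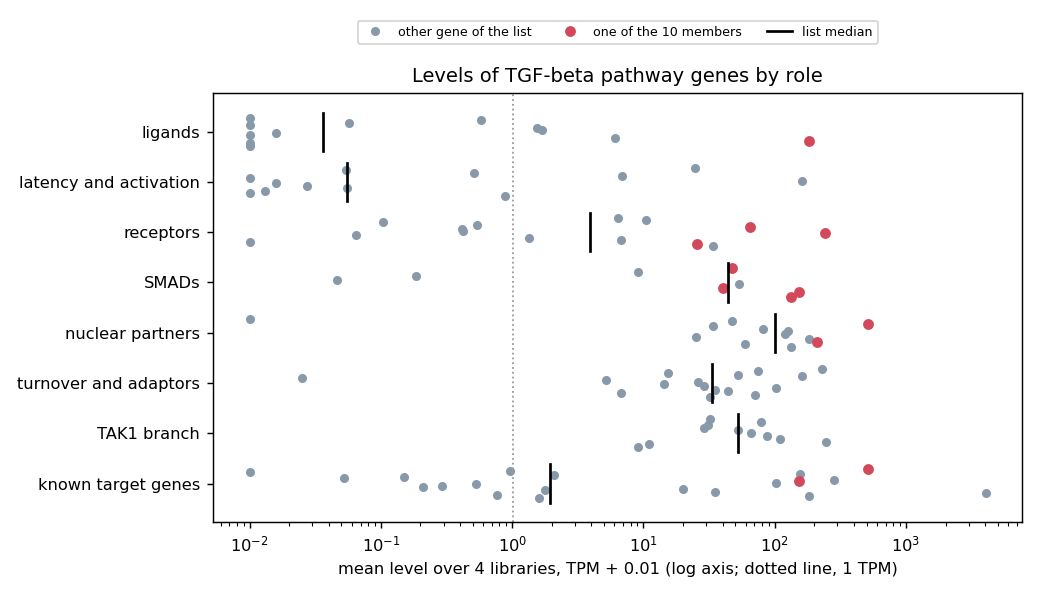
Mean TPM over the 4 libraries (plus 0.01, log axis) of every gene in 8 lists by role, with the 10 members in red and the list median as a bar. SMADs, nuclear partners, turnover and TAK1 genes gather above 1 TPM, whereas ligands other than Tgfb1 and most latency genes lie below or near it.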

How the data were processed

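RNA was sequenced in 4 libraries of mouse Th17 cells; the labels call the assay total RNA-seq and link a library protocol named for poly(A)+ RNA. The deposited files hold raw counts of fragments for each gene over GENCODE M13 exons, from featureCounts 1.4.6-p4 with reverse strandedness (option value 2), per the file headers. Alignment file names there carry the name STAR, without a version, and the labels name mm10. Other than counts, the deposited exon length per gene was used (unit: bases, per the file headers). No option to count multimapping or overlapping fragments was recorded, and featureCounts leaves these out by default.

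Of 50600 identifiers 50376 were matched to a GENCODE M21 symbol. TPM and CPM were computed here from counts and exon lengths. The members and gene lists were chosen with earlier results of these data known. The list symbols Arkl1 and Ark2n were not matched and are not analysed here, values of some list genes are not reported here, and Ctgf was matched as Ccn2. Named genes were all members, the 3 most abundant genes of each other list, genes called as varying, genes of the pairs, and the 3 genes nearest in pattern to Tgfbr2 and to the member with the largest deviance, with a range of at least 0.2 log2.

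Variation was modelled with edgeR 4.0.16 (R 4.3.3): intercept only, filterByExpr, TMM, and the deviance at the trended dispersion against chi-square with 3 degrees of freedom, adjusted over all genes by Benjamini-Hochberg, called at adjusted p under 0.05; a quasi-likelihood coefficient test needs more than 1 group. The step was tested on simulated data. Gene pairs were compared with an exact sign-flip permutation test, adjusted over 13 pairs. Alternatives were DESeq2 1.42.0 size factors and dispersion trend, no filter, shorter exon lengths, a pseudocount of 0.1, TPM over protein coding genes, and leaving out each replicate. Limits from 0 counts cover counting error only. No libraries were identical (chi-square of their counts over its degrees of freedom, 15.3 to 49.0). TPM, pairs and figures used scipy 1.17.1, pandas 2.3.3, numpy 2.4.6 and matplotlib 3.10.9 under Python 3.11.15.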

Additional observations from a re-analysis of the deposited data

Results flagged for a closer look

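None of the 10 members had a library far from the others. Among the 63 values looked at (members, other named genes, pairs and sums), the gap of the outermost library to its nearest neighbour, as a share of the range, passed Dixon's 95% critical value in 4 genes; chance alone gives about 5% of groups. On the TPM scale replicate 3 was high for Cd3e (254 TPM, share 0.862), Itgav (8.15 TPM, share 0.832) and Tab2 (116 TPM, share 0.846). Replicate 4 was high for Inhba (2.74 TPM on 42 fragments, share 0.869). The scale matters for 3 of them: on TMM-normalised CPM, a comparison chosen after seeing the data, the share was 0.611 for Cd3e, 0.669 for Itgav and 0.423 for Tab2, below the critical value, and replicate 3 was no longer highest for Tab2. For Inhba it was 0.932. None of these 4 genes varied beyond the edgeR trend.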

How the results depend on the processing

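No call on the 10 members changed: 0 of 10 varied beyond the trend with DESeq2 size factors, with the DESeq2 dispersion trend, without the expression filter and without each replicate in turn. The number of all genes called, 94, was 92, 94 and 85 under the first 3 of these, and 35 to 60 with a replicate left out, where fewer libraries were fitted. All 13 pair differences kept their sign with a pseudocount of 0.1, with exon lengths shortened by 200 bases and without each replicate; that of Smad7 and Smad6 was 9.15 and that of Tgfb1 and Tgfb3 6.85 with the smaller pseudocount. Mean TPM of the members moved by -10.2 to -6.85% with the shorter lengths, by 7.01 to 7.11% over protein coding genes only, and by -6.35 to 5.02% with a replicate left out. No paired analysis was possible because there is 1 group. Depth limits the low genes, such as Smad6 and Tgfb2, and not the members, each of which rests on 5423 fragments or more.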

Other observations

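Beyond the members, 5 of the 59 fitted pathway genes had an unadjusted p under 0.05 for variation between libraries (edgeR), and none passed after adjustment over all genes; 692 of all 11567 genes fitted had an unadjusted p under 0.05. The 4 described here were chosen after their values were seen. Pmepa1, a SMAD inhibitor and target gene, stood at 103, 85.6, 84.0 and 135 TPM in replicates 1 to 4 (adjusted p = 0.252). Map2k3 stood at 296, 186, 209.7 and 288 TPM (edgeR adjusted p = 0.461), so that replicates 1 and 4 were the highest pair for both, as for Tgfb1. Map2k6, which encodes an activating kinase of p38, stood at 6.93, 10.4, 13.0 and 5.94 TPM (edgeR adjusted p = 0.463), with replicates 2 and 3 highest. Ccr9 stood at 0.352, 0.630, 1.08 and 0.971 TPM (edgeR adjusted p = 0.582).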
